A study of Mus musculus with 16 samples.

Results

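The genes described here encode the apparatus by which the proximal tubule of the kidney takes filtered protein back from the urine. The set held 8 genes, Lrp2, Cubn, Amn, Dab2, Clcn5, Lrpap1, Fcgrt and Ocrl, chosen by symbol from the 40472 rows of the deposited count table. Each of the 8 matched 1 row, and all 8 passed the filter on low counts, which left 13614 genes. Poly(A) RNA of whole kidneys was sequenced from male C57BL/6 mice aged 12 weeks, in 4 groups of 4 libraries. The NV libraries came from normal kidneys of mice given vehicle, and the NP libraries from normal kidneys of mice given PJ34, an inhibitor of PARP enzymes. The IRV and IRP libraries came from kidneys after ischemia reperfusion, an injury in which the blood supply is interrupted and restored, in mice given vehicle and PJ34 respectively. The study set out to follow what the inhibitor does in the longer term after this injury; the day of collection, the dose and which kidney was taken stand in none of the labels used. The labels number the replicates without saying that each is a separate animal, so each p-value reflects only how far these libraries spread, which may be technical variation.

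Megalin, the product of Lrp2, is a giant endocytic receptor that spans the apical membrane of proximal tubule cells. Cubilin, the product of Cubn, has no membrane span of its own and is carried to the surface by amnionless, the product of Amn. Together they bind albumin, vitamin carriers and many other filtered proteins, which enter through clathrin-coated pits, are released in acid endosomes and are broken down in lysosomes, while the receptors recycle. Loss of these receptors or of their helpers lets small proteins pass into the urine.

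Of the 8 genes, 5 held a GC box in a promoter window, and the genes of the receptors differed in this respect. The 250 bases before the start of each gene were taken from RefSeq for mouse build GRCm38.p6, where all 8 symbols matched, with 10 windows in all. That build is older than the GRCm39 named in the submitters' processing notes, so the positions belong to the RefSeq table and not to the count table. The sequences below are shown because Lrp2, Cubn and Lrpap1 moved together in the counts and Clcn5 did not. They run 5′ to 3′ on the gene's own strand, which is the minus strand for all 4, and stop where an annotated exon begins. Capitals mark the letters GGGCGG on either strand, the GC box bound by SP1-type factors.
Lrp2 (chr2:69586066-69586279): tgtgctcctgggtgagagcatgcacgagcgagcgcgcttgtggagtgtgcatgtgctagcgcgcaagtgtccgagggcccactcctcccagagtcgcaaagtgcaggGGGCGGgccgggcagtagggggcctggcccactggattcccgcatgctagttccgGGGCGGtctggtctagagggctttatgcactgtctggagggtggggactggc
Cubn (chr2:13491877-13492126): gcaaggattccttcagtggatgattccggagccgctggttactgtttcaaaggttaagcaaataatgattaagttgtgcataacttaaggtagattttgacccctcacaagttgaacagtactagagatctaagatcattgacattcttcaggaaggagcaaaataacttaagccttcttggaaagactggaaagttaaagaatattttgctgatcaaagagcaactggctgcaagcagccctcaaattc
Lrpap1 (chr5:35105767-35105949): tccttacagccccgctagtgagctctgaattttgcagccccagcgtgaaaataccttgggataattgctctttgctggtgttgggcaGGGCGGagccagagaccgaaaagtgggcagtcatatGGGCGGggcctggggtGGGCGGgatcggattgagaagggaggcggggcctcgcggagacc
Clcn5 (chrX:7319359-7319608): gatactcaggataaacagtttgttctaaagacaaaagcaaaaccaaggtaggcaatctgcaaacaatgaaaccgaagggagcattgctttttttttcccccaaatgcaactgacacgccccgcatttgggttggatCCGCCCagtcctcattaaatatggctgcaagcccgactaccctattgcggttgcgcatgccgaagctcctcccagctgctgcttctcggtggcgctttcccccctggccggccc

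Over the full 250 bases the Lrp2 window was 66.4% G or C and held 2 GC boxes, and the Cubn window was 39.6% G or C and held none. The Lrpap1 window held 5 GC boxes, of which the 3 outside its first exon are shown, and the first window of Clcn5 held 1. The letters GGGCGG occurred in 32.74% of 32851 windows of this length. The letters CAAAGTCCA, a motif of the nuclear receptor HNF4A, occurred in 0.38% of windows and in none of the 10. TATAAA, the TATA box, occurred in 12.37% of windows and in the second window of Clcn5. A match or its absence describes these letters in these windows and says nothing about binding.

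The libraries differed in depth in a way that ran across the groups. Between 4963638 and 6169748 counts were held by 6 libraries (deep libraries), namely IRV replicates 3 and 4 and the whole IRP group, and the remaining 10 held 973812 to 1659983 (shallow libraries). Olfactory, vomeronasal and taste receptor genes summed to 330.2 to 633.9 CPM (counts scaled to a common library size) in the deep libraries and 5095 to 9989 CPM in the shallow ones. IRP and NP thus had no library set in common, and depth and group cannot be told apart there except through IRV. Transporter markers of the first and second proximal tubule segments (S1 and S2) summed to 3512 CPM or more in every library, so the tissue label was met. Havcr1, the tubular injury marker KIM-1, ran from 0.744 to 9.90 CPM in normal and from 21.7 to 132.6 CPM in injured libraries, with no overlap.

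In normal kidneys Lrp2 was the most abundant of the 8 transcripts per length. On the scale of CPM per kilobase of the longest coding transcript (GENCODE M21 lengths, so approximate), NV libraries had 222.8 ± 29.1 for Lrp2 (SD, n = 4). Lrpap1, the chaperone that keeps megalin free of ligands in the secretory pathway, followed at 130.9 ± 12.0, and Dab2, the adaptor that links the tail of megalin to clathrin, at 122.4 ± 12.2. These neighbours in the order did not differ beyond their spread. Cubn stood at 63.3 ± 5.97 and Fcgrt, the heavy chain of the neonatal Fc receptor that salvages albumin and IgG, at 48.5 ± 3.88. Amn had 20.7 ± 3.86 and Clcn5, an endosomal chloride-proton exchanger, 18.0 ± 0.861, which lay within their spread of each other. Ocrl, a phosphoinositide phosphatase of endosomes whose loss causes Lowe syndrome, was lowest at 5.39 ± 0.327. In IRV the order from the top was Lrp2 at 115 ± 16.5, Dab2 at 87.7 ± 9.44, Lrpap1 at 72.3 ± 15.6 and then Fcgrt at 39.9 ± 10.7 ahead of Cubn at 30.6 ± 6.95. Fcgrt and Cubn overlapped within their SD in IRV, whereas in NV Cubn was the higher.

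**Figure D1:**
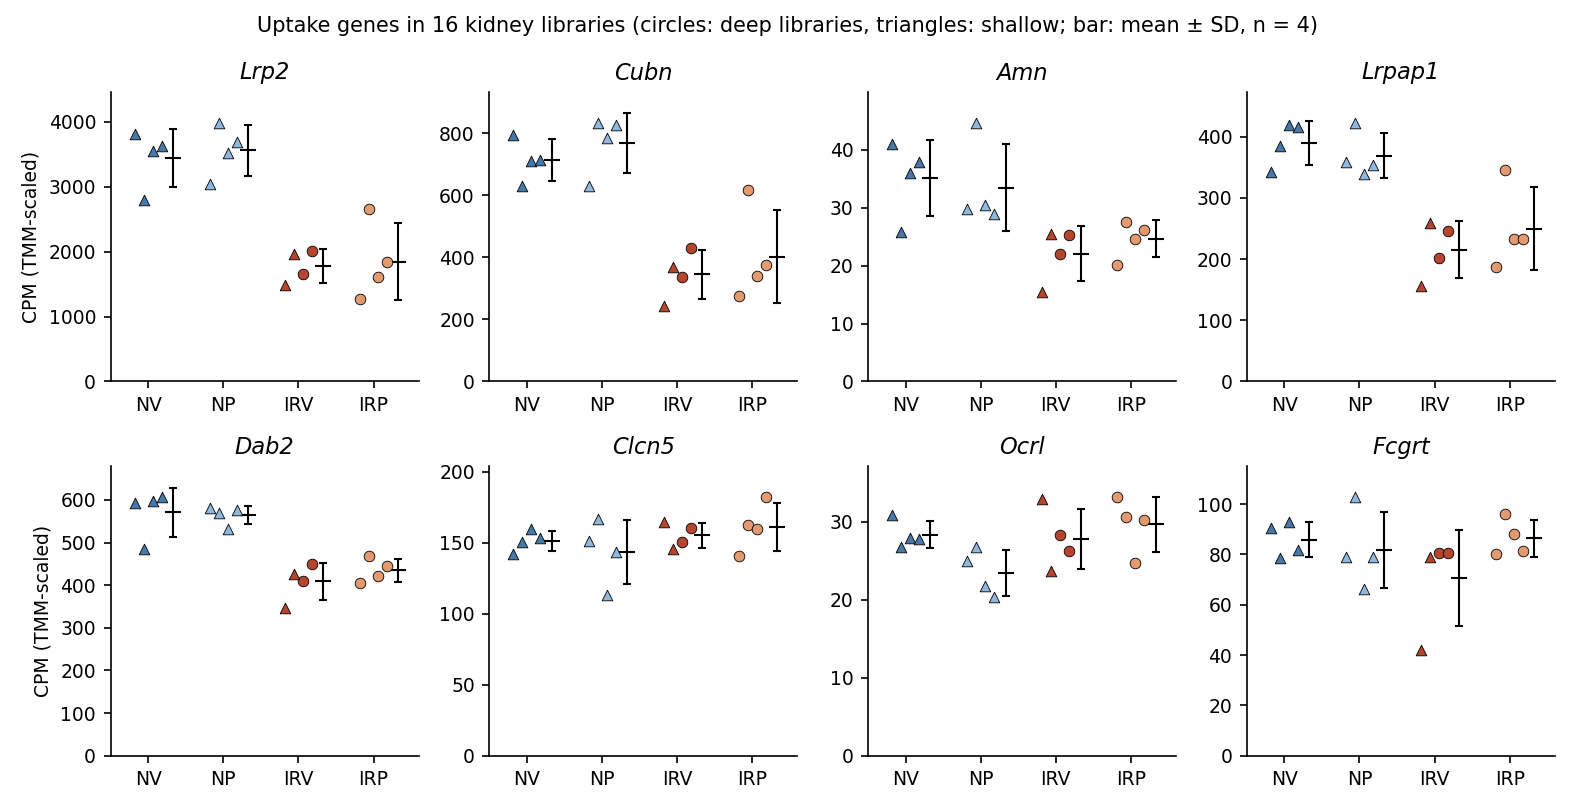
Each panel plots 1 gene in CPM on a linear axis from 0, with a point for each of the 16 libraries by group; circles are deep and triangles shallow libraries, and the bar gives the mean ± SD (n = 4). Lrp2, Cubn, Amn, Lrpap1 and Dab2 sit lower in IRV and IRP than in NV and NP, with IRP replicate 2 the highest IRP library for Lrp2 (2655 CPM), while Clcn5 and Ocrl overlap between all groups.

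The first comparison asked what ischemia reperfusion did to these transcripts without the inhibitor. Both receptors, the cubilin anchor, the megalin chaperone and the adaptor were lower in IRV than in NV, and the exchanger, the phosphatase and the Fc receptor did not pass the test. Thus 5 of 8 genes fell and 0 rose (edgeR's quasi-likelihood test, Benjamini-Hochberg adjusted p under 0.05 over 13614 genes), against 11.1% of all tested genes lower and 15.9% higher. The groups did not overlap for the same 5 genes, against 11.9% of all genes with IRV below NV. The median log2 change was -0.56 for the 8 genes and -0.03 for all genes.

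By fitted change Cubn and Lrp2 came first of the 8 genes, with Lrpap1 close behind Lrp2 and within its standard error. Lrp2 had 3816, 2792, 3549 and 3623 CPM in NV replicates 1 to 4 and 1478, 1968, 1656 and 2012 CPM in IRV replicates 1 to 4. Every IRV library was below every NV library, and the fitted level in IRV was 0.516 of that in NV (log2 change -0.95 ± 0.20 SE, edgeR adjusted p = 0.00205). Cubn had 796, 631, 711 and 715 CPM in NV and 244, 370.1, 335 and 431 CPM in IRV, again without overlap. Its change was -1.04 ± 0.21 (adjusted p = 0.00185, edgeR), to 0.486 of the NV level. Amn, which carries cubilin to the surface, had 41.0, 25.8, 36.01 and 37.8 CPM in NV and 15.4, 25.5, 22.0 and 25.3 CPM in IRV. NV replicate 2 and IRV replicate 2 almost met, and the change was -0.63 ± 0.19 (adjusted p = 0.0175, edgeR). Amn rested on 15 to 49 counts per shallow library in this comparison.

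The helpers of megalin followed, Lrpap1 more than Dab2. Lrpap1 had 342, 385, 420 and 415 CPM in NV and 156, 258, 201 and 246 CPM in IRV, with no overlap. It changed by -0.85 ± 0.18 (adjusted p = 0.0021, edgeR), to 0.554 of the NV level. Dab2 had 593, 486, 597 and 606 CPM in NV and 347, 427, 411 and 450.3 CPM in IRV. The groups lay apart, and the change of -0.48 ± 0.11 (adjusted p = 0.00427, edgeR) left 0.717 of the NV level.

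Clcn5, Ocrl and Fcgrt gave no call. Clcn5, which supports the acidification of endosomes and is mutated in Dent disease, had 142, 150.2, 159 and 153 CPM in NV and 165, 145, 151 and 160.2 CPM in IRV. Its groups overlapped, and its log2 difference was 0.04 with a 95% interval from -0.21 to 0.28. Ocrl ran from 26.8 to 30.8 CPM in NV and from 23.7 to 32.9 CPM in IRV, a difference of -0.05 (interval -0.34 to 0.25). Fcgrt ran from 78.4 to 92.7 CPM in NV, and in IRV replicate 1 stood at 42.1 CPM while the other 3 lay between 79.0 and 80.7. Its difference was -0.25 (interval -0.60 to 0.11, adjusted p = 0.288 by edgeR). Without IRV replicate 1 it was -0.096, and in the fit that adds library set as a term it was -0.458, neither of which passed.

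Within the shallow libraries alone, IRV replicates 1 and 2 against NV, Lrp2 changed by -1.002, Cubn by -1.21, Lrpap1 by -0.90 and Dab2 by -0.56 and all 4 passed, against 6.83% of genes lower (edgeR). Amn had -0.73 there and did not pass (adjusted p = 0.0838), and in the fit that adds library set as a term it had -0.73 (adjusted p = 0.0668) while the other 4 passed, against 6.13% of genes lower. Scaling by library totals in place of TMM took the median over all genes from -0.03 to 0.49 and the calls over all genes from 2162 higher and 1511 lower to 5716 higher and 246 lower. On that scale Lrp2 had -0.46 and Cubn -0.53, Dab2 turned to 0.03, no member was called lower, and Clcn5 at 0.54 and Ocrl at 0.48 were called higher. Set against that shifted median, Lrp2 lay at -0.95, Cubn at -1.02, Lrpap1 at -0.84, Amn at -0.60, Dab2 at -0.47, Fcgrt at -0.22, Ocrl at -0.01 and Clcn5 at 0.05.

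The second comparison put the same question in mice given PJ34. The same 5 genes were lower in IRP than in NP, and again 0 rose (edgeR, adjusted p under 0.05), against 24% of all tested genes lower and 19.6% higher. Groups did not overlap for 4 of 8 genes, against 21.2% of all genes with IRP below NP. The comparison shares no library with that of IRV and NV, but both were fitted with 1 estimate of the spread.

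Lrp2 had 3040, 3981, 3526 and 3689 CPM in NP and 1266, 2655, 1614 and 1836 CPM in IRP. The groups lay apart, and the change was -0.95 ± 0.20 (edgeR adjusted p = 0.00122), to 0.518 of the NP level. Cubn had 629, 833, 785 and 828 CPM in NP and 277, 618, 340 and 376 CPM in IRP, where replicate 2 came close to the lowest NP library. Its change was -0.93 ± 0.21 (adjusted p = 0.0022, edgeR). Dab2 had 581, 568, 533 and 576 CPM in NP and 405, 468, 421 and 445 CPM in IRP, without overlap. It changed by -0.38 ± 0.11 (adjusted p = 0.011, edgeR), to 0.77 of the NP level.

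Lrpap1 and Amn were nearer to the threshold. Lrpap1 had 359, 423, 339 and 355 CPM in NP and 188, 346, 233 and 233 CPM in IRP, so that IRP replicate 2 overlapped NP. Its change of -0.56 ± 0.18 (adjusted p = 0.0156, edgeR) lost the call without NP replicate 2 (-0.48, adjusted p = 0.0561) and without IRP replicate 1 (-0.43, adjusted p = 0.0653). Amn had 29.8, 44.6, 30.5 and 28.9 CPM in NP and 20.2, 27.5, 24.5 and 26.2 CPM in IRP, a change of -0.46 ± 0.18 (adjusted p = 0.0466, edgeR). That call was lost without NP replicate 2 (-0.26, adjusted p = 0.275), without IRP replicate 1 (-0.36, adjusted p = 0.146) and without IRP replicate 3 (-0.52, adjusted p = 0.0575).

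For Clcn5 the NP libraries had 151, 167, 113 and 144 CPM and the IRP libraries 140.2, 162, 159.8 and 182 CPM. The groups overlapped and the difference was 0.16 (interval -0.08 to 0.40). Fcgrt ran from 66.3 to 102.7 CPM in NP and from 80.1 to 96.0 CPM in IRP, a difference of 0.07 (interval -0.27 to 0.42). Ocrl ran from 20.3 to 26.8 CPM in NP and from 24.7 to 33.1 CPM in IRP, a difference of 0.33 ± 0.14 (adjusted p = 0.0571, edgeR). It passed without NP replicate 2 (0.42, adjusted p = 0.0355) and without IRV replicate 1, which enters through the shared spread (0.34, adjusted p = 0.0476).

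With the library set as a covariate, none of the 8 genes passed in IRP against NP (edgeR), with Lrp2 at -1.04 ± 0.34 (adjusted p = 0.101), Cubn at -1.25 ± 0.35 (0.0557), Dab2 at -0.53 (0.148), Lrpap1 at -0.66 (0.256) and Amn at -0.61 (0.333). Of all tested genes 0.786% were called lower in that fit. Scaled by totals alone, the median over all genes went from -0.01 to 0.57 and the calls over all genes from 2671 higher and 3264 lower to 7012 higher and 1778 lower. Lrp2 then had -0.40 and Cubn -0.40, Amn turned to 0.12 and Dab2 to 0.20, and Clcn5 at 0.74, Fcgrt at 0.65 and Ocrl at 0.92 were called higher. Set against that median, Lrp2 lay at -0.98, Cubn at -0.97, Lrpap1 at -0.58, Amn at -0.46, Dab2 at -0.37, Fcgrt at 0.08, Clcn5 at 0.17 and Ocrl at 0.35.

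**Figure D2:**
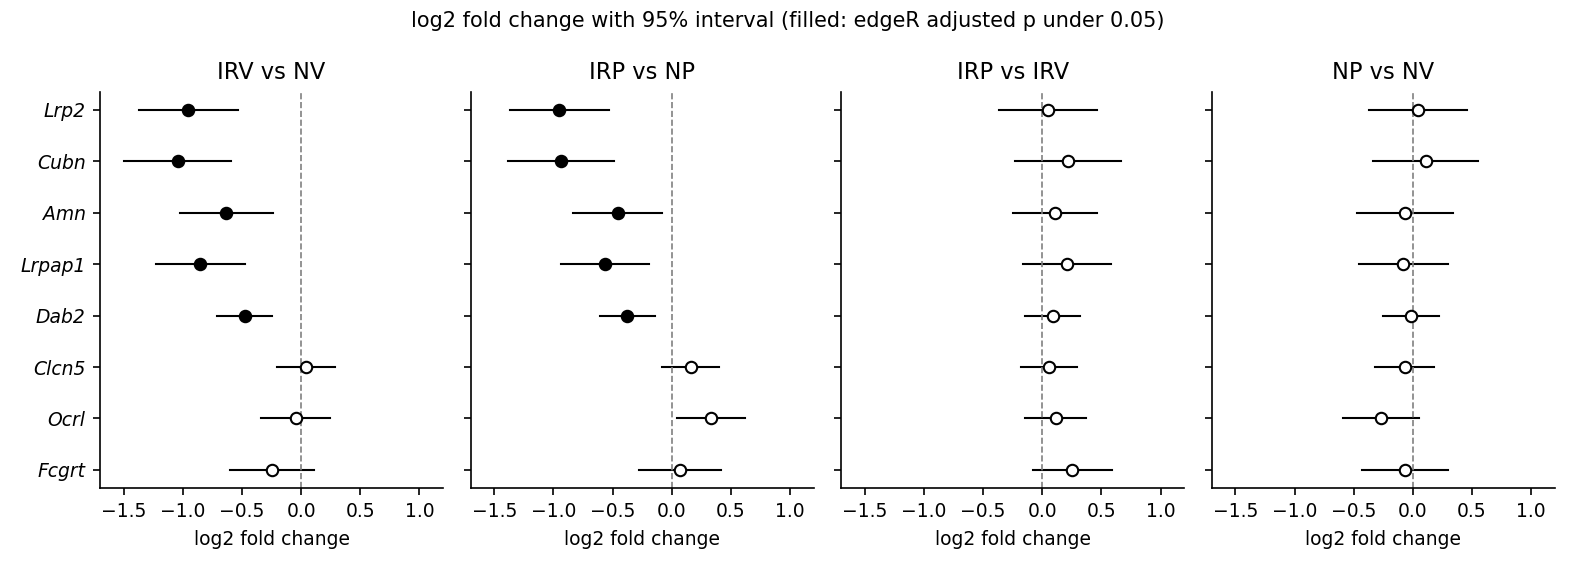
Points give the log2 fold change of each gene in 4 comparisons and lines its 95% interval; filled points passed edgeR's adjusted p under 0.05. Lrp2 (-0.95 and -0.95) to Dab2 (-0.48 and -0.38) are filled in both comparisons of injured with normal kidneys, and no point is filled for PJ34 against vehicle.

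PJ34 itself was not accompanied by a detectable difference in these genes. In IRP against IRV, 0 of 8 genes passed (edgeR), and 0 had an unadjusted p under 0.05. Lrp2 had 1779 ± 255 CPM in IRV and 1843 ± 590.1 CPM in IRP (SD, n = 4), a difference of 0.05 with an interval from -0.36 to 0.47. Cubn had 345 ± 78.3 and 403 ± 149 CPM, a difference of 0.22 (interval -0.23 to 0.66). All 8 point estimates were above 0, from 0.05 for Lrp2 to 0.25 for Fcgrt, and every interval included 0. The highest upper bound was that of Cubn and the lowest lower bound that of Lrp2, and the interval was narrower for Dab2 (-0.145 to 0.319). For each gene, differences within its own interval remain possible. Within the deep libraries alone, Lrp2 differed by 0.01, Cubn by 0.07 and Fcgrt by 0.10. Across all genes edgeR called 0 in this comparison (0% of genes, with 1832 or 13.5% at an unadjusted p under 0.05), limma-voom called 0, and DESeq2 called 5 higher and 1277 lower, none of them among the 8.

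IRP replicate 2 stood apart from the other IRP libraries. It had the highest Lrp2, Cubn, Lrpap1, Amn, Dab2 and Fcgrt of the group and the lowest Havcr1, 21.7 CPM against 41.7 to 114.1. Without it, IRP against IRV gave -0.20 for Lrp2 and -0.09 for Cubn, so the sign of these uncalled differences turned. IRP against NP gave -1.26 for Lrp2 and -1.30 for Cubn without it, and the same 5 genes passed.

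In NP against NV, 0 of 8 genes passed and 0 had an unadjusted p under 0.05 (edgeR). Lrp2 had 3445 ± 450 CPM in NV and 3559 ± 394 CPM in NP, a difference of 0.05 (interval -0.37 to 0.46). Cubn differed by 0.11 (interval -0.34 to 0.56). The difference farthest from 0 was that of Ocrl, which had 28.3 ± 1.72 CPM in NV and 23.5 ± 2.96 CPM in NP, -0.27 with an interval from -0.59 to 0.05. Over all genes edgeR called 0 (0% of genes, with 501 or 3.68% at an unadjusted p under 0.05), limma-voom called 0, and DESeq2 called 3 higher and 1 lower, none of them among the 8.

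The test of whether the injury difference itself depended on PJ34 also gave 0 of 8 genes (edgeR, 0 at an unadjusted p under 0.05). The interaction was 0.00 for Lrp2 (interval -0.58 to 0.59) and 0.11 for Cubn (interval -0.52 to 0.74). It was 0.38 for Ocrl (interval -0.03 to 0.79, adjusted p = 0.487), 0.32 for Fcgrt (interval -0.18 to 0.82) and 0.29 for Lrpap1 (interval -0.24 to 0.81). Over all genes edgeR called 0 (0% of genes, with 1550 or 11.4% at an unadjusted p under 0.05), limma-voom called 0, and DESeq2 called 1 higher and 21 lower, none of them among the 8.

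By group means, Lrp2, Cubn, Dab2, Lrpap1 and Amn were ordered with NV and NP at the top and IRP and IRV below. For each of the 5, NV overlapped NP and IRV overlapped IRP. All 8 injured libraries were below all 8 normal libraries for Lrp2, Cubn and Dab2, with 2655 against 2792 CPM, 618 against 629 CPM and 468 against 486 CPM at the nearest approach. For Lrpap1 and Amn the nearest libraries crossed. For Clcn5 the means ran from 144 CPM in NP through 151 in NV and 155 in IRV to 161 in IRP, with neighbours within their spread, and for Ocrl from 23.5 in NP through 27.8 in IRV and 28.3 in NV to 29.6 CPM in IRP. For Fcgrt they ran from 70.6 in IRV through 81.7 in NP and 85.9 in NV to 86.4 CPM in IRP, again with overlap.

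The receptors moved in step from library to library. Over the 16 libraries Lrp2 and Cubn log2 CPM had a Pearson r of 0.98, and of 0.95 after each group's mean was removed. These are descriptions over libraries that share depth and scaling, and no p is given. Lrp2 had r of 0.94 with Dab2, 0.93 with Lrpap1, 0.87 with Amn, 0.39 with Fcgrt, -0.25 with Clcn5 and -0.42 with Ocrl. After each group's mean was removed, r with Lrp2 was 0.72 for Dab2, 0.81 for Lrpap1, 0.74 for Amn, 0.52 for Fcgrt, -0.16 for Ocrl and 0.21 for Clcn5, so the sign for Clcn5 turned. Of 7245 genes whose log2 CPM averaged 4 or more, the genes most like Lrp2 were Cubn itself, Fbp1, a gluconeogenic enzyme, at 0.98, Pter at 0.98, Apob at 0.98 and Slc34a1, the main phosphate transporter of the tubule, at 0.98. Among the 5 most like Cubn were Aass, Abat, Fmo2 and Hgd, with r from 0.98 to 0.99, and the 5 most like Dab2 were Ndufs8, Slc4a4, Slc7a8, Epb41 and Slc5a2, with r from 0.96 to 0.98. All the genes named here for their likeness were lower in both IRV against NV and IRP against NP (edgeR), which their likeness to Lrp2, Cubn and Dab2 over the same libraries entails in part.

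**Figure D3:**
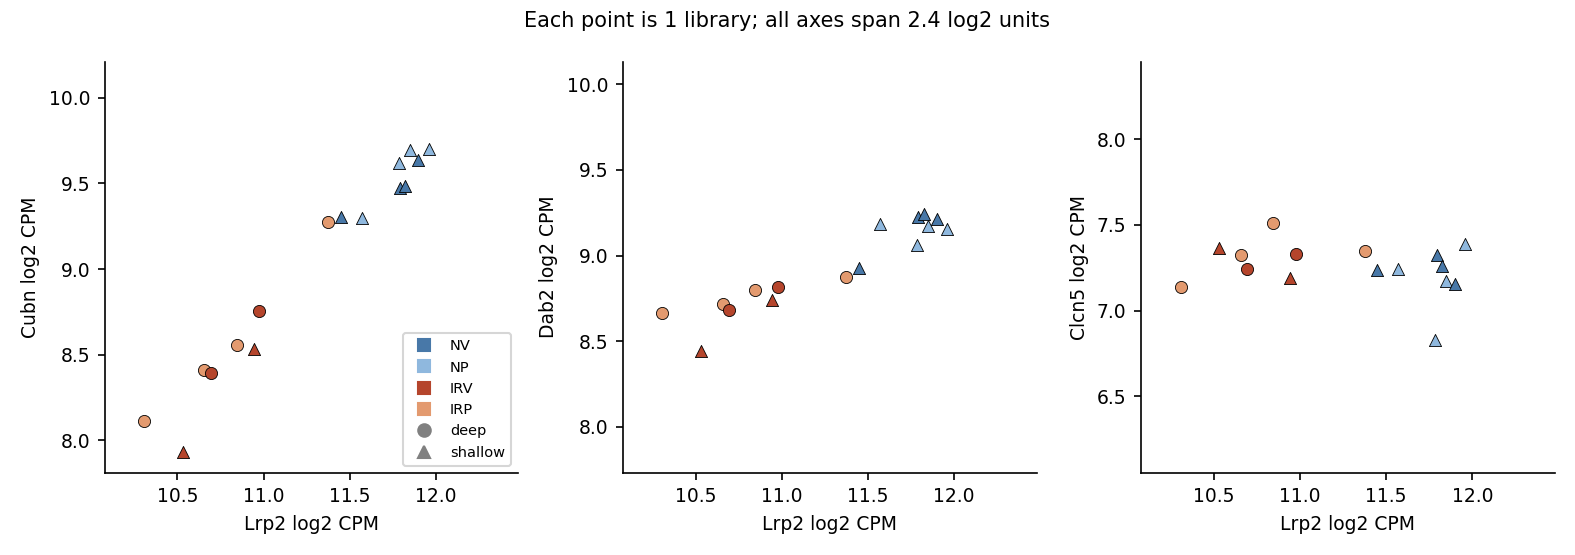
Each point is 1 library, with Lrp2 log2 CPM on the x axis and Cubn, Dab2 or Clcn5 log2 CPM on the y axis; all axes span the same range, colours give the groups and symbols the library set. Cubn rises with Lrp2 along a line close to equal slope (r of 0.98), Dab2 along a flatter one (0.94), and Clcn5 scatters around a level line (-0.25, or 0.21 with group means removed).

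Ratios of counts within a library do not depend on the scaling between libraries. They were set per 100 Lrp2 counts and compare groups, not genes, since lengths are not divided out. Cubn gave 20.8 ± 1.29 counts per 100 Lrp2 counts in NV, 21.6 ± 0.895 in NP, 19.2 ± 2.13 in IRV and 21.7 ± 1.20 in IRP (SD, n = 4). The groups overlapped, with a log2 difference of -0.12 in IRV against NV (exact permutation p = 0.286, two-sided) and 0.004 in IRP against NP (exact permutation p = 0.971). In IRP against IRV it was 0.18 (exact permutation p = 0.114), and all 16 libraries lay between 16.5 and 23.3. Among shallow libraries alone the IRV against NV difference was -0.24, with IRV replicates 1 and 2 at 16.5 and 18.8 below the NV range of 19.7 to 22.6. Leaving out 1 library at a time gave -0.17 to -0.05.

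The adaptor and the anchor had higher ratios to the receptors in IRV than in NV, without passing the adjustment. Dab2 gave 15.5, 17.4, 16.8 and 16.7 counts per 100 Lrp2 counts in NV and 23.5, 21.7, 24.8 and 22.4 in IRV. The groups did not overlap, and the log2 difference was 0.47 (exact permutation p = 0.0286, the smallest that 70 assignments can give; 0.171 after adjustment over 12 tests). In IRP against NP it was 0.62 (exact permutation p = 0.0571, adjusted 0.229), with IRP replicate 2 at 17.6 inside the NP range of 14.3 to 19.1 and the other 3 at 24.2 to 32. Amn gave 4.90 ± 0.548 counts per 100 Cubn counts in NV and 6.42 ± 0.429 in IRV, without overlap and with a log2 difference of 0.39 (exact permutation p = 0.0286, adjusted 0.171). In IRP against NP it was 0.55 (exact permutation p = 0.0857, adjusted 0.257). None of the 12 ratio tests passed the adjustment. With 4 against 4 libraries an adjusted value under 0.05 would have needed most of the 12 tests at the smallest p. Not passing therefore says little.

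Ratios of the remaining genes to Lrp2 were looked at after their values were known and have no test. Clcn5 gave 3.72, 5.38, 4.49 and 4.22 counts per 100 Lrp2 counts in NV and 11.1, 7.38, 9.10 and 7.96 in IRV, and 4.06 ± 0.727 in NP and 9.25 ± 2.16 in IRP. All 8 injured libraries lay above all 8 normal ones. Lrp2 itself was lower in all 8 injured libraries than in all 8 normal ones, so this separation follows in part from Lrp2. The share of all genes whose ratio to Lrp2 separates in this way was not computed. Fcgrt gave 2.51 ± 0.246 in NV and 3.94 ± 0.828 in IRV, Ocrl 0.83 ± 0.088 and 1.61 ± 0.464, and Lrpap1 11.5 ± 1.98 and 12.0 ± 1.06, which overlapped.

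**Figure D4:**
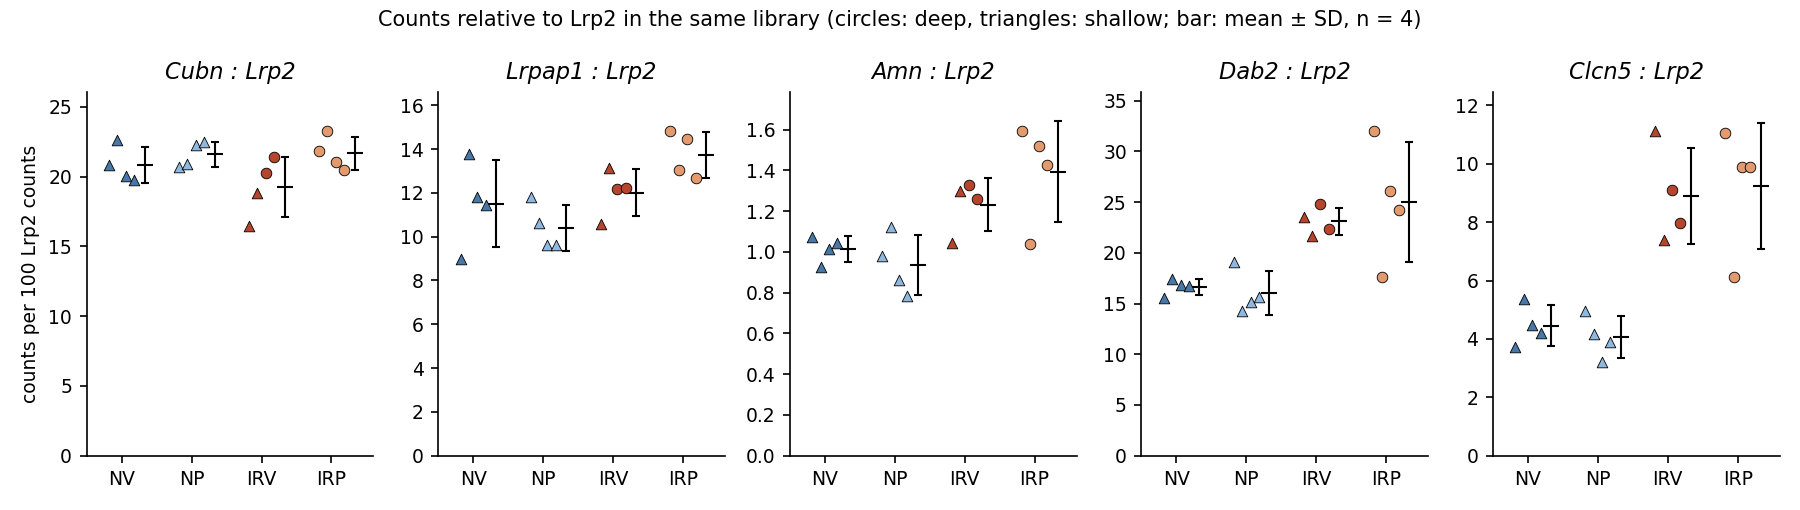
Counts of 5 genes per 100 Lrp2 counts in each library, on linear axes from 0, with the mean ± SD of each group (n = 4); circles are deep and triangles shallow libraries. Cubn stays between 16.5 and 23.3 in all libraries, whereas Clcn5 runs from 3.21 to 5.38 in normal and from 6.11 to 11.1 in injured libraries.

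Because whole kidneys were sequenced, fewer proximal tubule cells and less RNA of these genes per cell cannot be told apart. Of the 15 S1 and S2 markers, all transporters or enzymes of the early proximal tubule, 12 fell and 0 rose in IRV against NV (edgeR; median log2 change -0.98, all genes -0.03). In IRP against NP 11 fell and 1 rose (median -0.68, all genes -0.01). Of all tested genes 11.1% were lower in the first comparison, and 24% were lower and 19.6% higher in the second. Once library set entered the fit, Slc13a3 (-1.32) and Slc22a8 (-1.36) passed in IRP against NP (edgeR), and Slc34a1, Miox and Gatm did not. The summed S1 and S2 level was 7305 to 9532 CPM in NV, 7988 to 9693 in NP, 3512 to 4834 in IRV and 3827 to 6517 in IRP. Set against the mean log2 CPM of that list in the same library, Lrp2 stood at 3.36 ± 0.06 in NV and 3.32 ± 0.07 in IRV, and at 3.41 ± 0.11 in NP and 3.06 ± 0.15 in IRP (SD, n = 4). The groups overlapped in both pairs, in the second only through IRP replicate 2 at 3.279, above NP replicate 1 at 3.266. Cubn stood at 1.09 ± 0.13 in NV and 0.93 ± 0.13 in IRV, and at 1.197 ± 0.145 in NP and 0.854 ± 0.215 in IRP, with overlap in both pairs. Lrpap1 stood at 0.22 ± 0.24 in NV and 0.26 ± 0.13 in IRV, and at 0.14 ± 0.10 in NP and 0.20 ± 0.12 in IRP, also with overlap. Amn stood at -3.244 ± 0.105 in NV and -2.994 ± 0.115 in IRV, with overlap. In NP it had -3.315 ± 0.244 and in IRP -3.089 ± 0.135, again with overlap. Against the same list Dab2 stood at 0.77 ± 0.07 in NV and 1.201 ± 0.06 in IRV, and Clcn5 at -1.14 ± 0.22 and -0.19 ± 0.28. Ocrl stood at -3.53 ± 0.18 and -2.65 ± 0.41, and Fcgrt at -1.95 ± 0.14 and -1.37 ± 0.26, with no overlap for these 4. For Fcgrt the groups nearly met, with IRV replicate 1 at -1.739 and NV replicate 2 at -1.758. In NP and IRP the levels were -1.22 ± 0.18 and -0.41 ± 0.24 for Clcn5, -3.80 ± 0.19 and -2.83 ± 0.38 for Ocrl and -2.04 ± 0.18 and -1.30 ± 0.23 for Fcgrt, without overlap. Dab2 had 0.76 ± 0.09 in NP and 1.03 ± 0.22 in IRP, where replicate 2 at 0.777 lay inside the NP range. The list itself fell in both comparisons, so a gene without a change of its own stands higher against it in injured libraries. The share of all genes without overlap on this measure was not computed.

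Markers of other cell types of the kidney went different ways. Of all tested genes 15.9% were higher and 11.1% lower in IRV against NV, and 19.6% and 24% in IRP against NP. All 12 macrophage markers rose in both injury comparisons (edgeR), and their sum was 86.1 to 123.1 CPM in NV, 87.0 to 159.8 in NP, 646 to 1064 in IRV and 474 to 1252 in IRP. Of 10 fibroblast markers 8 rose in each, from a sum of 249 to 495 CPM in NV to 1760 to 2832 CPM in IRV and from 355 to 524 CPM in NP to 1284 to 3240 CPM in IRP. Of 10 endothelial markers 4 rose in IRV against NV and 5 in IRP against NP, with sums of 364 to 480.5 CPM in NV, 412 to 493 in NP, 478 to 645.5 in IRV and 534 to 626.5 in IRP. Of 8 podocyte markers 7 rose in each, with sums of 415 to 532 CPM in NV, 480.5 to 490.4 in NP, 675 to 1038 in IRV and 832.5 to 895 in IRP. With the library set as a covariate, none of the endothelial genes Pecam1, Plvap, Eng and Cdh5 passed in either comparison (edgeR; IRV against NV 0.16 to 0.52, IRP against NP 0.02 to 0.61). The podocyte genes Synpo, Podxl and Ptpro passed in IRV against NV in that fit and did not pass in IRP against NP. Of 7 tested loop of Henle and distal tubule markers 3 fell and 0 rose in each comparison (edgeR). Their sum was 4146 to 4588 CPM in NV, 2126 to 2974 in IRV, 3713 to 4925 in NP and 1805 to 4583 in IRP. Of 8 collecting duct markers 0 passed in IRV against NV, and 2 rose in IRP against NP. With the library set as a covariate Egf passed in IRV against NV alone (-1.58), and Calb1, Slc12a3, Foxi1 and Scnn1b passed in neither comparison. No marker of these lists was without a count in any group. Dab2 and Fcgrt are also used by macrophages, and Fcgrt by endothelium and podocytes; the part of these cells in the Dab2, Fcgrt, Clcn5 and Ocrl values was not tested.

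The clathrin machinery under the receptors showed no common direction. Of 16 genes for clathrin, AP2 and their partners, 2 rose and 2 fell in IRV against NV (edgeR, median 0.08). Of all genes 15.9% were higher and 11.1% lower there. In IRP against NP 2 rose and 1 fell (median 0.11), where 19.6% of all genes were higher and 24% lower. Ap2b1, the beta subunit of the AP2 adaptor, had 83.2 ± 9.40 CPM in NV and 132 ± 17.6 in IRV, with changes of 0.67 ± 0.15 and 0.83 ± 0.15. Gipc1, a partner of the megalin tail, changed by 0.58 ± 0.17 and 0.43 ± 0.16. Cltb, a clathrin light chain, fell from 78.7 ± 9.51 to 44.7 ± 5.28 CPM in IRV, by 0.80 ± 0.13 on the log2 scale, and in IRP by 0.47 ± 0.13. Epn1 changed by -0.45 ± 0.15 in IRV and had -0.13 ± 0.15 in IRP. With the library set as a covariate Cltb passed in IRV against NV (-0.85) and the other 3 did not, and none of the 4 passed in IRP against NP.

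Genes of endosome sorting and recycling were mixed as well. Of 27, 2 rose and 7 fell in IRV against NV (edgeR; median -0.11), and 3 rose and 4 fell in IRP against NP (median -0.07). The background of 13614 tested genes had 15.9% called up and 11.1% called down in the first comparison. For the second these shares were 19.6% and 24%. The part of the list that fell was thus above the background in the first comparison and below it in the second. Rab11b, a GTPase of recycling endosomes, changed by 0.62 ± 0.14 and 0.35 ± 0.13. Rab4a, which serves fast recycling, changed by -0.54 ± 0.16 and -0.43 ± 0.15, and Pikfyve, a lipid kinase of endosomes, by -0.33 ± 0.11 and -0.44 ± 0.11. Inpp5b, the nearest relative of Ocrl, had -0.27 ± 0.14 in IRV (adjusted p = 0.175) and fell by 0.52 ± 0.14 in IRP (adjusted p = 0.00544). With the library set as a covariate 0 of these 4 passed in either comparison.

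Genes of endosomal acidification with a call were all lower. Of 23 genes, most of them subunits of the proton pump, 7 fell and 0 rose in IRV against NV (edgeR; median -0.24), where 11.1% of all genes were lower. In IRP against NP 8 fell and 0 rose (median -0.31), where 24% of all genes were lower. Atp6v1e1 fell from 140.5 ± 11.2 CPM in NV to 84.8 ± 18.6 in IRV, by 0.71 ± 0.15, and by 0.54 ± 0.15 in IRP. Atp6v1g1 changed by -0.61 ± 0.15 and -0.52 ± 0.14, and Atp6v1d by -0.53 ± 0.14 and -0.50 ± 0.14. Clcn3, a relative of Clcn5 in other endosomes, had -0.36 ± 0.14 in IRV (adjusted p = 0.0671) and fell by 0.53 ± 0.14 in IRP. Clcn4, the closest relative, had 0.00 ± 0.13 and 0.06 ± 0.13, near the values of Clcn5. With the library set as a covariate 5 genes of the list were lower in IRV against NV and 0 in IRP against NP. Scaled by totals alone, the list had 7 higher and 0 lower in IRV against NV, where 5716 of all 13614 genes were higher and 246 lower. On that scale it had 9 higher and 0 lower in IRP against NP, where 7012 of all genes were higher and 1778 lower.

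Receptors related to megalin went opposite ways. Lrp1, a large relative found on many cell types including macrophages and fibroblasts, rose from 65.0 ± 23.7 CPM in NV to 241 ± 70.2 in IRV, by 1.89 ± 0.27 (edgeR adjusted p = 0.000109), and by 1.98 ± 0.27 in IRP. It passed with the library set as a covariate too (1.72 and 1.68). Vldlr changed by -0.32 ± 0.10 in IRV and had -0.15 ± 0.10 in IRP, and its IRV call was lost with that covariate (-0.34, adjusted p = 0.107). Lrp1b was called lower in IRP (-4.84 ± 0.92), where the libraries held 1 to 8 counts, but IRV replicates 3 and 4, also deep, held 4 and 7 counts against 22 and 25 in the shallow IRV libraries, so the difference followed the library set.

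**Figure D5:**
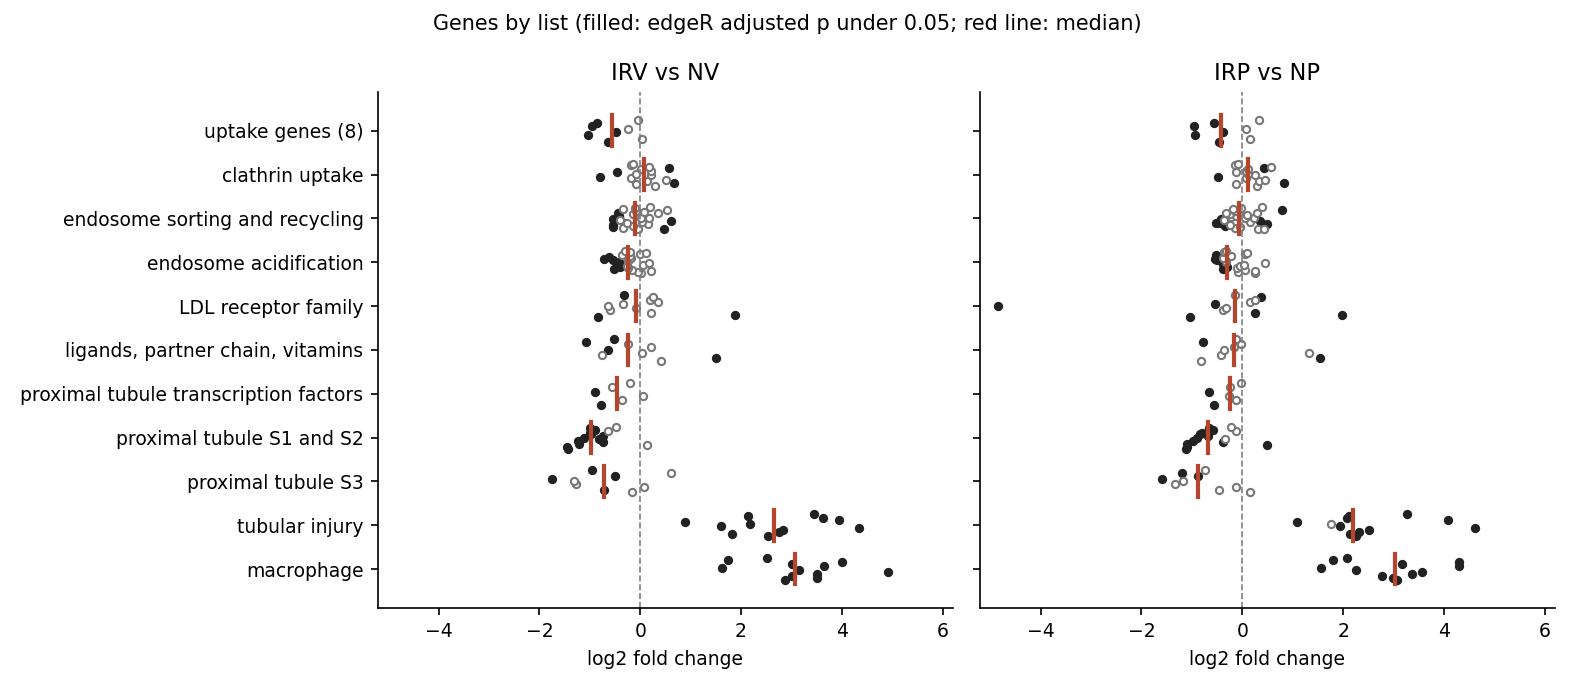
Each point is 1 tested gene, placed by its log2 fold change in IRV against NV (left) and IRP against NP (right) and by its list; filled points passed edgeR's adjusted p under 0.05 and red lines mark the medians. The 8 uptake genes have medians of -0.56 and -0.42, between the S1 and S2 markers at -0.98 and -0.68 and the clathrin genes at 0.08 and 0.11.

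Ligands and partners were tested where the kidney itself transcribes them. B2m, the light chain that pairs with the Fcgrt product and with MHC class I chains, rose from 136 ± 21.9 CPM in NV to 385 ± 57.4 in IRV, by 1.501 ± 0.20 (edgeR adjusted p = 7.07e-05), and by 1.53 ± 0.20 in IRP. Fcgrt did not follow, with -0.25 and 0.07. Tcn2, a vitamin B12 carrier that megalin takes up, fell from 803 ± 84.5 to 378 ± 75.2 CPM in IRV, by 1.08 ± 0.18, and by 0.79 ± 0.18 in IRP. Folr1, a folate receptor of the same brush border, changed by -0.64 ± 0.16 in IRV and had -0.37 ± 0.16 in IRP (adjusted p = 0.0648). Vdr, the vitamin D receptor, changed by -0.52 ± 0.16 in IRV and had -0.13 ± 0.16 in IRP. With the library set as a covariate Vdr lost its call in IRV (-0.60, adjusted p = 0.0597) and Tcn2 its call in IRP (-1.05, adjusted p = 0.0557), while B2m passed in both. Of 9 tested genes of this list 1 rose and 3 fell in IRV against NV, and 1 rose and 1 fell in IRP against NP. As a background, injury with vehicle had 15.9% of the 13614 genes called up and 11.1% called down by edgeR. Injury with PJ34 had 19.6% called up and 24% called down.

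Of 6 tested transcription factors of the proximal tubule, 2 fell and 0 rose in each injury comparison (edgeR), where 11.1% and 24% of all genes were lower. Hnf4a, which directs the differentiated state of the proximal tubule, fell from 735 ± 71.8 CPM in NV to 394 ± 60.5 in IRV, by 0.90 ± 0.16, and by 0.67 ± 0.16 in IRP. It passed with the library set as a covariate in both (edgeR, -1.05, adjusted p = 0.00159, and -0.95, adjusted p = 0.0474). In the second comparison none of the 8 uptake genes passed in that fit. Cubn at -1.25 (adjusted p = 0.0557) and Lrp2 at -1.04 (adjusted p = 0.101) had changes no smaller than that of Hnf4a, and a difference between these genes was not tested. Esrra, a nuclear receptor of mitochondrial genes, changed by -0.79 ± 0.16 and -0.56 ± 0.15, and with that covariate it passed in the first (-0.71) and lost the call in the second (-0.44, adjusted p = 0.434). Ppara had -0.55 ± 0.23 (adjusted p = 0.0866) and -0.24 ± 0.22.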

How the data were processed

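Poly(A) RNA from 16 kidney libraries was measured in 4 groups of 4. The submitters' processing notes name Salmon 1.3.0, beside Trim Galore 0.6.6, FastQC 0.11.3 and DESeq2 1.30.1; they give GRCm39 as genome build. The authors deposited expected counts per gene, not normalised, as whole numbers for 40472 genes. Salmon shares reads among similar transcripts, and no label used says whether molecular identifiers were present. Symbols were matched by Ensembl ID to GENCODE M21 for 40276 genes. The list names Tf and Cblif found no row by symbol.

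The counts were tested with edgeR 4.0.16 in R 4.3.3. Genes were kept with filterByExpr at a minimum count of 10, which left 13614, and scaled by TMM. The quasi-likelihood test fitted all 16 libraries with group as the only term, and p-values were adjusted by Benjamini-Hochberg over all 13614 genes with a threshold of 0.05. Log2 CPM used a prior count of 2. Within-library ratios used counts plus 0.5 and exact two-sided permutation over 70 assignments of 4 against 4 libraries. The code was tested on simulated counts. No 2 libraries of a group agreed within sampling noise.

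Alternatives were other scalings, no filter, DESeq2 1.42.0, limma-voom (limma 3.58.1), a replicate block, the library set (above or below 3000000 counts) and leaving out each library. Totals per library ran from 973812 to 6169748, which limits Amn and Ocrl most, at 15 and 20 counts in their lowest library. From each list up to 4 genes with the smallest p in either injury comparison were named, beside fixed relatives of the 8 genes and the 5 genes most like Lrp2, Cubn and Dab2; some of these are not reported here. The 8 genes, the lists and the tests were chosen with earlier results of these data known.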

Additional observations from a re-analysis of the deposited data

Results flagged for a closer look

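In 44 groups of 4 values (log2 CPM of the 8 genes and 3 log2 ratios, each in 4 groups), 5 held a library whose gap to the nearest of the others exceeded, as a share of the group's range, Dixon's critical value at the 95% level. Chance gives such a gap in about 5% of groups. For Amn, NP replicate 2 stood at 5.50 log2 CPM, above the other 3 at 4.88 to 4.96, and the Amn call in IRP against NP was lost without it. For Dab2, NV replicate 2 stood at 8.93, below the others at 9.21 to 9.25. For Fcgrt, IRV replicate 1, the library with the fewest counts, stood at 5.42, below the others at 6.32 to 6.34. The log2 ratio of Amn to Cubn was -4.59 in NV replicate 2, against -4.29 to -4.23 in the others. The same ratio was -4.48 in IRP replicate 2, against -3.84 to -3.77 in the other IRP libraries.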

How the results depend on the processing

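In IRV against NV, 5 of the 8 genes passed, and 5 passed without any 1 of the 16 libraries (range 5 to 5). With library totals as the only scaling 2 passed, both higher, and with no filter on low counts 1 passed, lower. Over all genes 5716 were higher and 246 lower of 13614 with totals, and 3124 higher and 600 lower of 40472 without the filter. In IRP against NP, 5 passed, against 3 to 6 when each library was left out in turn (3 without IRP replicate 1). There 3 passed with library totals and 3 with no filter, all higher, and 0 once library set entered the fit. Over all genes that comparison had 7012 higher and 1778 lower of 13614 with totals. It had 5805 higher and 10928 lower of 40472 without the filter. Without the filter the median of all genes was -0.32 and -1.08 in the 2 comparisons, which RLE factors and TMM over abundant genes left between -0.06 and -0.01. With the replicate block 5 and 4 genes passed, and Amn in IRP against NP had -0.45 (adjusted p = 0.0568). Same-numbered libraries had correlations of their deviations from -0.23 to 0.26, so the numbers were not taken to pair the libraries. The interaction, NP against NV and IRP against IRV gave 0 genes of the 8 under every alternative run (edgeR; DESeq2 and limma-voom gave 0 of the 8 as well). Among genes called in the reported fit or under the alternative, signs turned with library totals in IRV against NV for Dab2 (0.025), Ocrl (0.48), Epn1 (0.054), Pikfyve (0.18) and Vldlr (0.19). They turned with library totals in IRP against NP for Amn (0.12), Dab2 (0.20), Clcn3 (0.037), Inpp5b (0.058), Cltb (0.10), Epn1 (0.44), Pikfyve (0.15), Rab4a (0.15), Atp6v1e1 (0.028), Atp6v1g1 (0.054), Atp6v1d (0.064), Vldlr (0.43), Vdr (0.43) and Esrra (0.015). With no filter they turned in IRP against NP for Dab2 (0.059) and Rab4a (0.01). Signs of genes called in neither fit turned as well, such as Fcgrt in IRV against NV (0.27 with totals and 0.073 with no filter). Beyond the moved median, the cause was not tested. No ratio passed, so whether ratios keep their calls could not be judged from the alternatives.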
